A study of Mus musculus with 6 samples.

Results

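The genes described here are 9 that set up or mark the Sertoli cell, the supporting cell of the testis tubule: the SOX factors Sox9 and Sox8, the zinc-finger factor Wt1, the GATA factors Gata1, Gata4 and Gata6, the male-fate factor Dmrt1, and the secreted products Amh and Dhh. They were chosen by name, and every probe whose RefSeq accession belongs to one of them was taken. This gave 15 probes for 9 genes of the 16514 genes named on the array, and all 9 were among the 14236 genes tested.

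The samples were primary Sertoli cell cultures from C57BL/6J mice, whose age is not given in the sources used here. All 3 groups were grown in a DMEM and F12 mixture that held insulin at 10 µg/ml, transferrin at 5 µg/ml and epidermal growth factor at 5 ng/ml, at 34 °C, with fresh medium on days 2 and 4. From day 5 the cells had 24 h of vehicle, of basic fibroblast growth factor (bFGF, 20 ng, with no volume stated) or of PD0325901 at 10 µM, an inhibitor of the kinases MEK1 and MEK2. Each group had 2 single-colour Agilent arrays. Vehicle cells therefore also had epidermal growth factor and insulin, which signal in part through those kinases. Whether arrays of a group hold RNA of separate animals or cultures is not stated, and the p-values thus reflect array-to-array spread that may be technical.

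In the embryonic gonad, SOX9 starts the Sertoli programme with help from WT1, GATA4 and the nuclear receptor NR5A1, and SOX8 backs SOX9 up. SOX9, NR5A1, GATA4 and WT1 are known to act on the Amh gene, whose product, anti-Müllerian hormone, makes the female ducts regress and is a mark of immature Sertoli cells. Desert hedgehog, the product of Dhh, is the signal from Sertoli cells to Leydig cell precursors and peritubular cells, while DMRT1 keeps Sertoli cells from turning towards the ovarian granulosa cell fate.

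Levels are given as the log2 signal of a probe minus the log2 of the 75th percentile of the signals on its array, so 0 is the 75th percentile and a difference of 1 is 2-fold. A probe's level says nothing about how abundant one gene is against another. A gene was called changed where limma's test, with Benjamini-Hochberg adjustment over all 14236 genes, gave an adjusted p under 0.05. Errors of differences are standard errors from that fit, with 2 arrays a group.

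The 75th percentile signal of the 6 arrays lay between 1464 and 1613 units. The share of probes called well above background was 64.9% to 66.6% in the vehicle and PD0325901 arrays and 75.6% to 75.9% in the bFGF arrays. All 15 probes of the 9 genes were detected and none was saturated. Because every treatment had its own slide and scan, an effect of slide and an effect of treatment cannot be told apart in these comparisons. Of 18 listed Sertoli cell markers, 16 had a probe and all 16 stood well above background on each of the 6 arrays. Markers of other testis cells were present too, so the cultures were mixed, and in such bulk RNA fewer cells of a type and less RNA per cell cannot be told apart.

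Upstream sequence is shown for Gata1, which had the largest difference of the 9 genes under PD0325901, and for Dhh, the secreted signal that fell with it. RefSeq promoter entries on GRCm38.p6 were found for 3 of the 9 genes, Gata1 and Dhh among them. The motif matches of the remaining gene are not reported here. The 250 bases upstream of the start are shown 5′ to 3′ on the minus strand, at chrX:7967911-7968160 for Gata1 and chr15:98898541-98898790 for Dhh. Capitals mark letters that match a searched motif.
Gata1: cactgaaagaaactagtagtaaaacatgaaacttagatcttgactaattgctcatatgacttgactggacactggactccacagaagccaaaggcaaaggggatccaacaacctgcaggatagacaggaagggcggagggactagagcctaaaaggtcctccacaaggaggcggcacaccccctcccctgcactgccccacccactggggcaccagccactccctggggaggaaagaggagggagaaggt
Dhh: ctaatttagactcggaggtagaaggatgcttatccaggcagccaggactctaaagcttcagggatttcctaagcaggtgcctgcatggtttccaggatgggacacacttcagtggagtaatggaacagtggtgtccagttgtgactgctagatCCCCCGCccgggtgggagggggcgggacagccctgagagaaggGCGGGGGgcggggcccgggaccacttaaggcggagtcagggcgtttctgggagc
The Dhh window held the 7 letters GCGGGGG, bound by EGR factors and WT1, at positions -54 to -48 and, on the opposite strand, at -97 to -91. Both strands were searched, with matches allowed to overlap, for GATA motifs (AGATAA or TGATAA or AGATAG or TGATAG), SOX motifs (AACAAT or else ACAAAG), NR5A1 motifs (AAGGTCA or else CAGGTCA), the AP-1 motifs TGACTCA and TGAGTCA, the ETS core CCGGAA, the EGR and WT1 motifs GCGTGGG and GCGGGGG, and the DMRT1 core ACATTGT. The EGR and WT1 letters occur in 13.0% of 32851 promoter windows of this length. None of the searched letters is in the Gata1 window, while GATA motifs occur in 26.5%, SOX motifs in 24.0%, ETS in 12%, NR5A1 in 7.98%, AP-1 in 4.46% and DMRT1 in 2.56% of such windows. Each window lies upstream of a RefSeq start. The arrays do not show which start the cultured cells used, so this absence says nothing about sequence at other Gata1 starts.

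The 9 genes did not move as a block. Under PD0325901, 5 rose (Gata1, Amh, Gata6, Gata4 and Sox9), 3 fell (Sox8, Dhh and Wt1), and Dmrt1 was not called. These 8 of 9 stand against 53.4% of all tested genes called in that comparison, 24.1% higher and 29.3% lower. The median difference of the 9 genes was 0.28, against -0.05 over all genes. The largest difference was that of Gata1, at 1.91 ± 0.05, and 3.1% of all tested genes had a larger one in either direction. Under bFGF, 3 of the 9 were called, against 19.9% of all genes: Gata1 and Gata6 rose, where 12.6% of all genes did, and Gata4 fell, where 7.28% did. The Gata6 call held in 5 of 17 alternatives. All 3 of these calls were lost when bFGF replicate 2 was left out, where limma called no gene at all, although each of the 3 kept an unadjusted p under 0.05. Both treatments were compared with the same vehicle arrays. With 2 arrays a group, groups that do not overlap are common. They did not overlap in 79.7% of all genes for PD0325901 against vehicle, 67.6% for bFGF against vehicle and 86.6% for bFGF against PD0325901. Of the 9 genes, 8, 7 and 9 did not overlap, in that order.

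**Figure D1:**
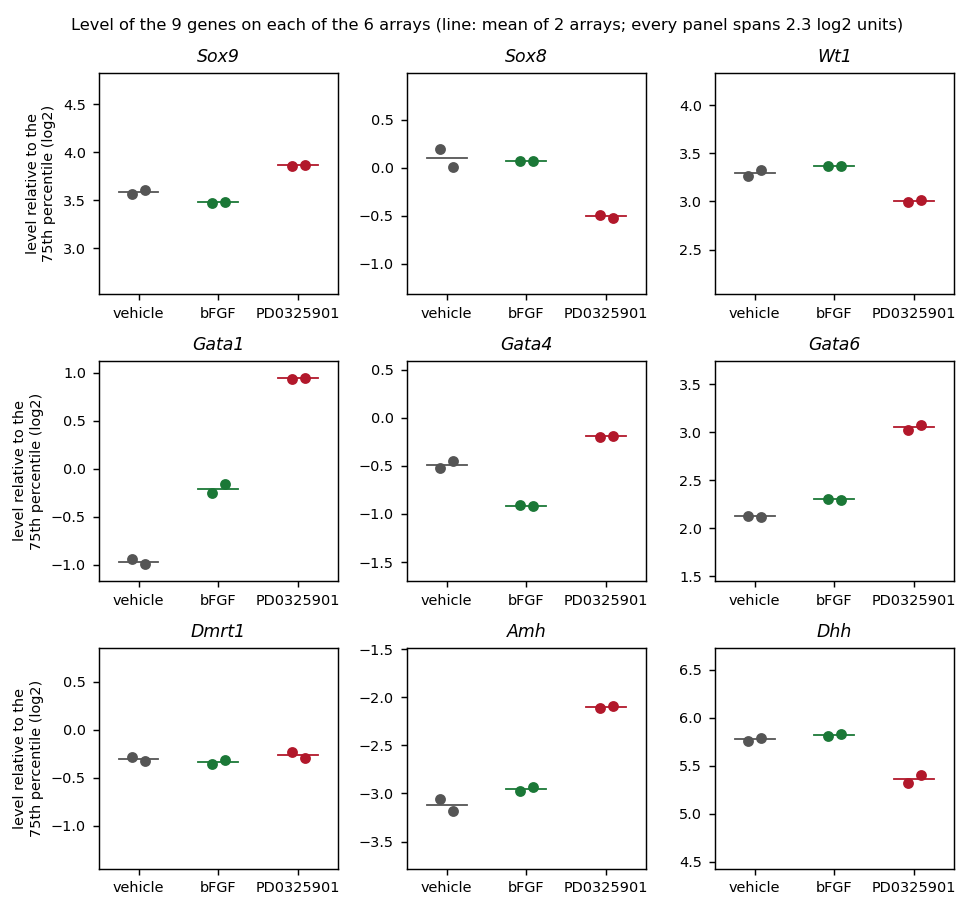
Level of each of the 9 genes (y axis, log2 signal relative to the 75th percentile of the array) on the 2 vehicle, 2 bFGF and 2 PD0325901 arrays; points are arrays and lines are group means. Gata1, Amh and Gata6 stand highest on the PD0325901 arrays, and Sox8, Wt1 and Dhh lowest.

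SOX9 is the factor on which Sertoli cell identity first depends. Sox9 stood at 3.57 and 3.61 on the vehicle arrays, at 3.48 on both bFGF arrays, and at 3.86 and 3.87 after PD0325901. The inhibitor arrays were above all others and the bFGF arrays below both vehicle arrays. The PD0325901 rise was 0.28 ± 0.04, or 1.21-fold (adjusted p = 0.00492, limma). The bFGF difference was -0.11, with a 95% interval of -0.21 to -0.01, and it was not called (adjusted p = 0.115, limma). All 3 Sox9 probes were higher under PD0325901, by 0.28 to 0.47, and none was called under bFGF, where their differences ran from -0.11 to 0.06.

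Sox8, the close relative that can stand in for Sox9, went the other way with the inhibitor. Its levels were 0.19 and 0.01 on the vehicle arrays, 0.07 on both bFGF arrays, and -0.49 and -0.52 after PD0325901. The bFGF values lay between those of vehicle, and the PD0325901 values below all others. Sox8 fell by 0.61 ± 0.07 on the log2 scale under PD0325901, a 1.52-fold drop (adjusted p = 0.00319, limma), and its second probe fell by 0.51. The bFGF difference was -0.03, with an interval of -0.23 to 0.16. Set against each other within an array, after each gene was centred on its vehicle mean, Sox9 minus Sox8 was 0.86 and 0.91 on the PD0325901 arrays, -0.08 and -0.07 on the bFGF arrays, and -0.11 and 0.11 on the vehicle arrays. The 2 SOX genes thus moved apart on both inhibitor arrays by more than they differed between vehicle arrays.

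WT1 maintains Sertoli cells and Sox9 once the gonad has formed. Wt1 was measured by 1 probe, at 3.26 and 3.32 on the vehicle arrays, 3.37 on both bFGF arrays, and 3.0 and 3.01 after PD0325901. The inhibitor arrays were the lowest and the 3 groups did not overlap. By comparison, 67.6% to 86.6% of all genes did not overlap either. Wt1 fell by 0.29 ± 0.04 on the log2 scale under PD0325901 (1.22-fold, adjusted p = 0.0054, limma). The bFGF difference was 0.08, with an interval of -0.03 to 0.19 and an adjusted p of 0.233 from limma.

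GATA1, best known from red blood cell precursors, is also made by Sertoli cells. Gata1 stood at -0.94 and -0.99 on the vehicle arrays, -0.25 and -0.16 on the bFGF arrays, and 0.94 and 0.95 after PD0325901. The order was vehicle, bFGF, PD0325901, with wide gaps between groups and less than 0.1 between arrays of a group. Gata1 rose by 1.91 ± 0.05 with PD0325901, which is 3.76-fold (adjusted p = 9.86e-05, limma). It rose by 0.76 ± 0.05 with bFGF, which is 1.69-fold (adjusted p = 0.00739, limma). The Gata1 probe was printed 10 times per array, and the SD among its spots was 0.03 to 0.05. With bFGF replicate 2 left out the bFGF difference was 0.71, with an adjusted p of 0.0535.

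**Figure D2:**
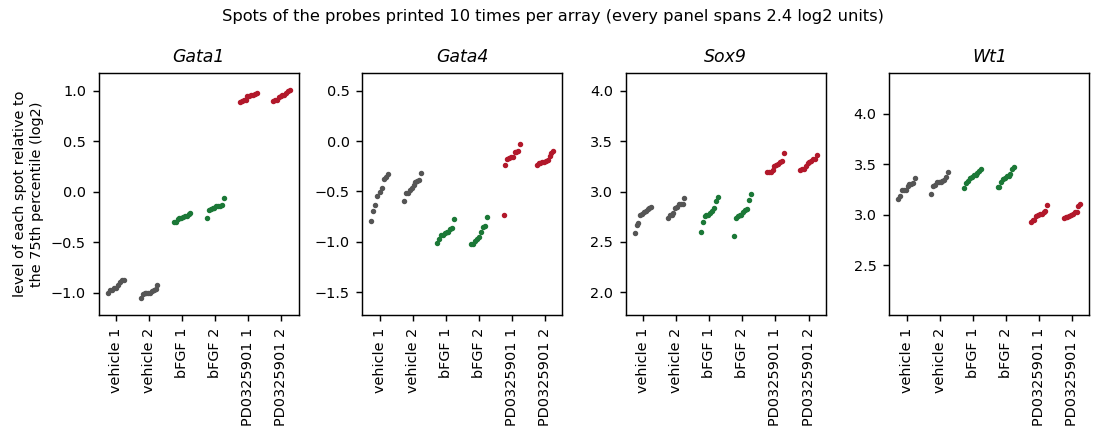
Level of each spot (y axis, log2 relative to the 75th percentile of the array) for the probes of Gata1, Gata4, Sox9 and Wt1 that were printed 10 times on each of the 6 arrays, sorted by level within an array. The spots of Gata1 separate the 3 treatments, and 1 Gata4 spot on the first PD0325901 array lies below the others.

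GATA4, which is needed for the first steps of testis formation and binds the Amh promoter, had 2 probes. Its brighter probe read -0.52 and -0.45 on the vehicle arrays, -0.91 and -0.92 on the bFGF arrays, and -0.20 and -0.18 after PD0325901. On this probe the 3 groups did not overlap (nor did 67.6% to 86.6% of all genes, by comparison), with bFGF lowest and PD0325901 highest. Gata4 rose by 0.30 ± 0.04 under PD0325901 (adjusted p = 0.00578, limma) and fell by 0.43 ± 0.04 under bFGF (adjusted p = 0.0116, limma). The other Gata4 probe was at -0.82 and -0.85 in vehicle, -0.89 and -0.91 under bFGF, and -0.36 and -0.33 under PD0325901. In the fit over all detected probes it was higher by 0.49 under PD0325901, while its bFGF difference of -0.06 was not called (adjusted p = 0.355, limma). The rise with the inhibitor was therefore seen with both probes and the fall with bFGF with 1 of them. The bFGF call was also lost without bFGF replicate 1 (-0.44, adjusted p = 0.0568) or bFGF replicate 2 (-0.42, adjusted p = 0.075, limma).

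GATA6 is the other GATA factor of the Sertoli cell and overlaps GATA4 in function. Gata6 stood at 2.13 and 2.12 on the vehicle arrays, 2.31 and 2.29 on the bFGF arrays, and 3.03 and 3.07 after PD0325901. The groups were ordered as for Gata1, with arrays of a group within 0.1 of each other. The PD0325901 rise was 0.93 ± 0.04, or 1.90-fold (adjusted p = 0.000236, limma). The bFGF rise was 0.18 ± 0.04, with an adjusted p of 0.0462. This call was lost in 12 of 17 alternatives, among them the replicate block, the 2 compared groups only, the fit without a filter on dim probes, and each of the 6 arrays left out in turn; without bFGF replicate 1 it was 0.17 (adjusted p = 0.152) and without bFGF replicate 2 it was 0.18 (adjusted p = 0.161, limma). With the array median as the scale it was 0.04 and not called. Of the other 2 Gata6 probes, one was higher by 0.58 under PD0325901 and the other, at about -5 on this scale, was not called, with an interval of -1.15 to 0.51.

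**Figure D3:**
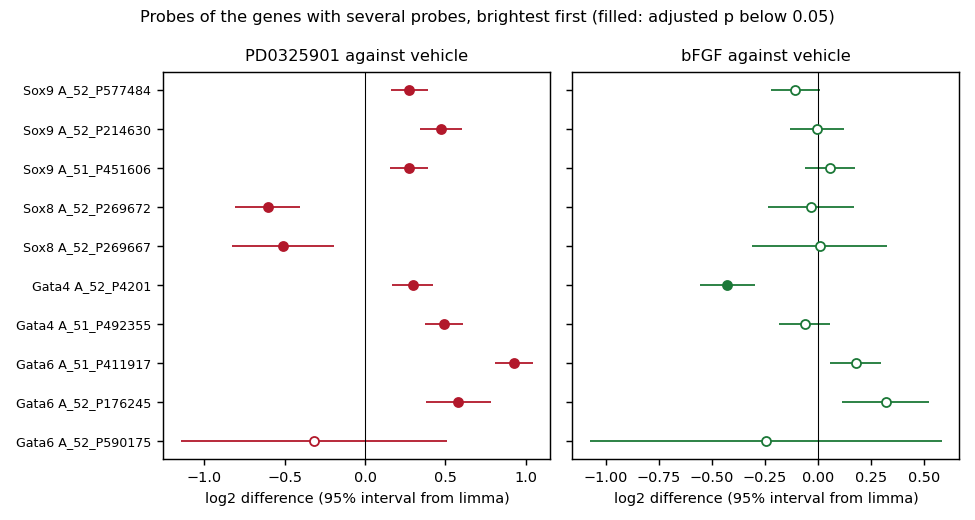
Log2 difference from vehicle, with 95% intervals from limma, for every probe of Sox9, Sox8, Gata4 and Gata6 (rows, brightest probe of a gene first), for PD0325901 and for bFGF; filled points passed the adjusted p of 0.05 over all detected probes. With PD0325901 every probe but the dimmest of Gata6 is filled, and with bFGF 1 Gata4 probe is.

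With the brightest probe of each gene, the 3 GATA genes did not keep step with each other. On the vehicle-centred scale, Gata1 minus Gata4 came to 1.13 and 1.24 with bFGF and to 1.61 on both PD0325901 arrays. Gata6 minus Gata4 was 0.60 on both bFGF arrays and 0.61 and 0.65 on the PD0325901 arrays. These gaps use the brighter Gata4 probe, the only one of that gene called under bFGF, and the brightest Gata6 probe. Under PD0325901 that Gata4 probe rose by 0.30 and that Gata6 probe by 0.93. The other Gata4 probe rose by 0.49 and the second Gata6 probe by 0.58, which are closer together. The dimmest Gata6 probe was not called (-0.32).

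DMRT1 holds male identity after birth, and its gene had the smallest difference of the 9 in each comparison. Dmrt1 read -0.29 and -0.33 on the vehicle arrays, -0.36 and -0.32 on the bFGF arrays, and -0.24 and -0.29 after PD0325901, so that the bFGF and vehicle groups overlapped. The PD0325901 difference was 0.04, with an interval of -0.08 to 0.16, and the bFGF difference was -0.03, with an interval of -0.15 to 0.09. These intervals reach 0.16 at most and do not hold differences of the size of Gata6 or Amh under the inhibitor. With the array median as the scale in place of the 75th percentile, Dmrt1 was called in both comparisons, at 0.15 under PD0325901 and -0.17 under bFGF.

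Amh stood at -3.05 and -3.18 on the vehicle arrays, -2.97 and -2.94 on the bFGF arrays, and -2.12 and -2.09 after PD0325901. Both inhibitor arrays were well above the others, and the bFGF arrays lay just above vehicle. Amh rose by 1.01 ± 0.06 under PD0325901, which is 2.02-fold (adjusted p = 0.000438, limma). The bFGF difference was 0.16 ± 0.06, with an interval of 0.01 to 0.31, and it was not called (adjusted p = 0.113, limma).

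Dhh stood at 5.76 and 5.78 on the vehicle arrays, 5.81 and 5.83 on the bFGF arrays, and 5.32 and 5.40 after PD0325901. Here the inhibitor arrays were the lowest, unlike those of Amh. Dhh fell by 0.41 ± 0.05 on the log2 scale under PD0325901, a 1.33-fold drop (adjusted p = 0.00284, limma). The bFGF difference was 0.05, with an interval of -0.08 to 0.17 and an adjusted p of 0.494. The 2 secreted products of the group thus changed in opposite directions with the inhibitor.

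**Figure D4:**
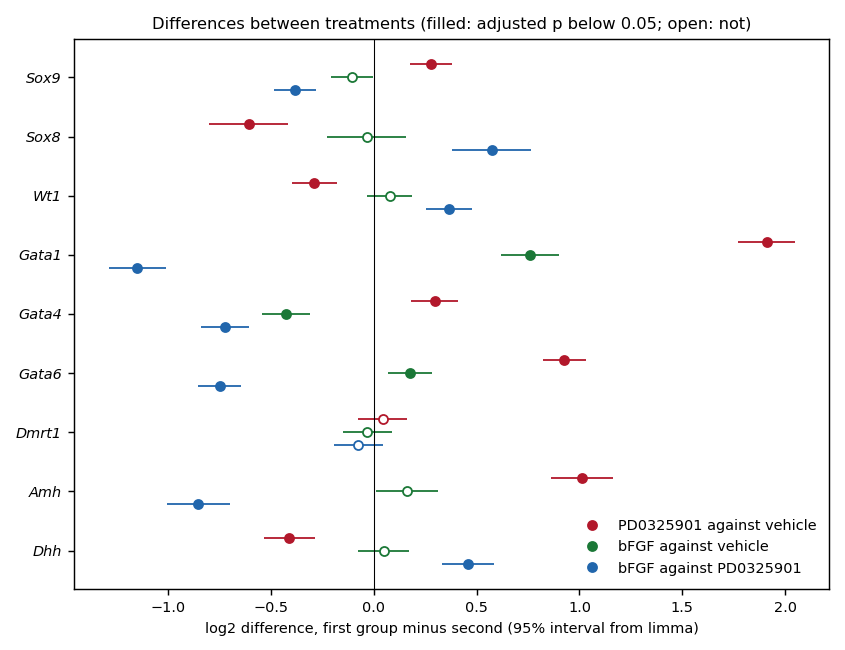
Log2 difference (x axis, first group minus second, with 95% intervals from limma) of the 9 genes for PD0325901 against vehicle, bFGF against vehicle and bFGF against PD0325901; filled points have an adjusted p below 0.05. Gata1 has the longest distance from 0 in each direct comparison and Dmrt1 lies near 0 in all 3.

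Compared directly, bFGF and PD0325901 cultures differed in 8 of the 9 genes, against 62.0% of all genes (36.6% higher and 25.4% lower under bFGF). Higher under bFGF were Sox8 (0.57), Dhh (0.46) and Wt1 (0.37). Lower under bFGF were Gata1 (-1.15), Amh (-0.85), Gata6 (-0.75), Gata4 (-0.72) and Sox9 (-0.38). For Gata4, the values of the groups lay on either side of vehicle with the brighter probe. For Gata1 and Gata6 both treatments lay above vehicle, and the direct comparison gives the distance between them. Dmrt1 was not called (-0.07, adjusted p = 0.207, limma). With the array median as the scale, the 3 higher and 5 lower calls became 2 higher and 6 lower, and the 2 higher and 1 lower calls of bFGF against vehicle became 1 higher and 3 lower.

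Partners and regulators of the lineage factors were followed in a list of 16 genes, of which 14 were tested. With PD0325901, 42.9% of these were called, against 53.4% of all genes. Under PD0325901, 5 rose (Nr0b1, Fgf9, Ptgds, Emx2 and Gadd45g), 1 fell (Tcf21) and 8 were not called; with the array median as the scale, 10 rose and 1 fell. The Tcf21 call was lost with the replicate block and without vehicle replicate 1 or either PD0325901 replicate. The median difference of the list was 0.34 against -0.05 over all genes. Nr0b1, which encodes DAX1, a nuclear receptor that opposes NR5A1, rose by 2.06 ± 0.27 under PD0325901 (adjusted p = 0.00419, limma). It also rose by 1.87 ± 0.27 under bFGF (adjusted p = 0.0201, limma), a call lost in 6 of 17 alternatives: with the 2 compared groups only, with the replicate block, and without vehicle replicate 2, bFGF replicate 2, PD0325901 replicate 1 or PD0325901 replicate 2. Its levels were -3.28 and -3.77 in vehicle, -1.97 and -1.34 under bFGF, and -1.53 and -1.40 under PD0325901. Vehicle overlapped with neither treatment, as in 79.7% of all genes for PD0325901 and 67.6% for bFGF.

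FGF9 and the prostaglandin D synthase encoded by Ptgds both keep Sox9 switched on in the fetal testis. Fgf9 was too dim in vehicle to stand clear of background, and under PD0325901 it was at least 3.29-fold higher (adjusted p = 0.00271, limma), the bound being taken from the lowest signals called above background. Ptgds rose by 1.68 ± 0.04 under PD0325901 (adjusted p = 7.97e-05) and by 0.21 under bFGF (adjusted p = 0.0298, limma); the bFGF call was lost in 9 of 17 alternatives, among them each of the 6 arrays left out in turn. NR5A1 itself gave no call. Nr5a1 differed from vehicle by -0.03 under PD0325901, with an interval of -0.21 to 0.16, and by -0.04 under bFGF. The cofactors FOG1 and FOG2, which bind GATA proteins and are encoded by Zfpm1 and Zfpm2, were not called under PD0325901 either, at 0.00 (interval -0.10 to 0.10) and 0.15. Under bFGF the list had 3 genes higher, 2 lower and 9 not called. These counts were 2 and 3 with the array median, 1 and 1 with the replicate block, and 0 and 0 with the 2 compared groups only, without bFGF replicate 2 or without either PD0325901 replicate; they were 2 and 1 without vehicle replicate 1, 1 and 1 without vehicle replicate 2, and 1 and 0 without bFGF replicate 1.

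Downstream of Amh, 8 receptor and SMAD genes were tested. With PD0325901, 37.5% of these were called, against 53.4% of all genes. Under PD0325901, Smad1 (0.46, adjusted p = 0.00744) and Smad4 (0.35, adjusted p = 0.0027, limma) rose, Acvr1, a type I receptor, fell by 0.21, and 5 were not called. The Acvr1 call was lost with the array median and without vehicle replicate 1, PD0325901 replicate 1 or PD0325901 replicate 2. Amhr2, the receptor specific for the hormone and itself made by Sertoli cells, had a PD0325901 difference of 0.00, with an interval of -0.13 to 0.13. Amhr2 was the only gene of this list called under bFGF, where it rose by 0.29 (adjusted p = 0.027, limma). That call was lost in 9 of 17 alternatives, with each of the 6 arrays left out in turn, the replicate block, the 2 compared groups only, and the array median, which gave 0 genes higher and 3 lower in this list. Amh itself was not called in that comparison.

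Around Dhh, 12 hedgehog pathway genes were tested, not all of them downstream of it. With PD0325901, 50% of these were called, against 53.4% of all genes. Under PD0325901, 5 fell (among them Gas1, Gli1, Hhat and Boc), Smo, the signal transducer, rose by 0.56, and 6 were not called; the median difference was -0.24. With quantile normalization 3 fell, and without PD0325901 replicate 2, 2 fell. The Boc call was lost in 6 of 17 alternatives, among them each vehicle or PD0325901 array left out in turn. Gas1, a co-receptor, fell by 0.82 (adjusted p = 0.0263, limma), a call lost with quantile normalization, the replicate block, and without vehicle replicate 1 or either PD0325901 replicate. Gli1, the usual target gene of the pathway, fell by 0.77 (adjusted p = 0.0119, limma), and 1 of the 2 PD0325901 arrays read it well above background; this call was lost with quantile normalization and without PD0325901 replicate 2. The other targets gave no call, with Ptch1 at -0.20 (adjusted p = 0.128, limma) and Hhip at 0.00, whose interval of -0.97 to 0.97 is wide. Under bFGF 1 of the 12 was called: Ihh, another hedgehog ligand, was at least 1.05-fold higher than in vehicle. Ihh was well above background on the bFGF arrays only, so it was tested only because of the group where it was high. The lowest signals called well above background were lower on the bFGF arrays (-7.12 and -6.98) than on the vehicle arrays (-6.27 and -6.19). The Ihh levels under bFGF were -6.37 and -5.93. Its call was lost in 9 of 16 alternatives: with quantile normalization, the replicate block, the 2 compared groups only, and each of the 6 arrays left out in turn.

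**Figure D5:**
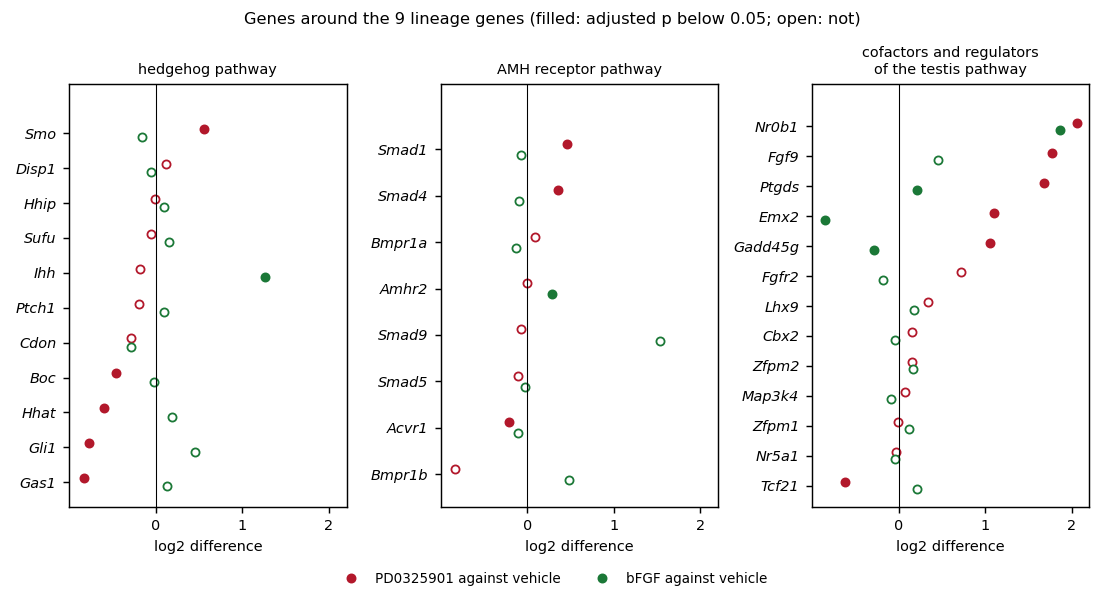
Fitted log2 difference from vehicle (x axis) for genes of the hedgehog pathway, the AMH receptor pathway, and the cofactors and regulators of the testis pathway, under PD0325901 and bFGF; filled points have an adjusted p below 0.05. Points of genes not above background in vehicle (Fgf9, Ihh, Smad9, Bmpr1b) are fitted values, not bounds; Nr0b1 is filled and to the right in both comparisons.

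Markers of the cell types were followed too, where 53.4% of all tested genes were called under PD0325901. The called share was 68.8% for Sertoli, 75% for peritubular myoid, 57.1% for fibroblast and 83.3% for endothelial markers. It was 50% for Leydig, 45.5% for germ cell and 42.9% for macrophage markers. Under PD0325901, 9 of the 16 Sertoli cell markers fell, 2 rose and 5 were not called, and their summed level, in units of the 75th percentile signal, was 641 to 645 in vehicle, 592 to 616 under bFGF and 528 to 559 under PD0325901. Clu alone made 34.4% to 42.8% of these sums. The rest summed to 405 to 409 in vehicle, 387 to 404 under bFGF and 308 to 320 under PD0325901. Thus Sox8, Wt1 and Dhh fell where the marker sum was lower, and Sox9, Gata1, Gata4, Gata6 and Amh rose there. Inhbb, the inhibin beta B subunit, fell by 1.44 and Espn, an actin bundler of Sertoli cell junctions, fell by 4.37, both among the 9 that fell. Over the 8 peritubular myoid markers, 5 rose and 1, Smtn, fell, and the sum was 63.0 to 67.6 in vehicle, 64.9 to 71.7 under bFGF and 92.4 to 93.0 under PD0325901. Over the 7 fibroblast markers, 3 rose and 1 fell, with sums of 69.5 to 70.2, 68.9 to 76.5 and 95.8 to 98.1.

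Leydig cells also make GATA4 and GATA6, and of 6 tested Leydig markers none rose and 3 fell under PD0325901, with sums of 26.8 to 27.7 in vehicle, 26.6 to 29.7 under bFGF and 22.8 to 22.9 under PD0325901. All 3 Leydig calls were lost without either PD0325901 replicate. Germ cells make DMRT1, and the sum of 11 germ cell markers was 13.7 to 15.7 in vehicle, 20.7 to 25.6 under bFGF and 17.3 to 17.5 under PD0325901, with Acrv1 not above background in vehicle or under PD0325901. Of these 11, 5 rose and none fell under bFGF (45.5% called, against 19.9% of all genes), and 3 rose and 2 fell under PD0325901. All 5 bFGF calls were lost with the 2 compared groups only and with the replicate block. Of the PD0325901 calls, only that of Kit held in all 17 alternatives. Ldhc alone made 80.0% to 83.7% of the germ cell sum, and the other 10 summed to 2.74 to 2.90 in vehicle, 3.58 to 4.16 under bFGF and 3.32 to 3.34 under PD0325901. Macrophage markers summed to 11.9 to 13.1, 8.71 to 9.41 and 8.28 to 8.57 in the same order of groups, of which Lyz2 made 61.3% to 73.0%; the rest summed to 3.43 to 3.54, 3.37 to 3.45 and 2.89 to 3.02. Endothelial markers summed to 1.26 to 1.29, 1.34 to 1.41 and 0.499 to 0.569, with Pecam1 not above background under PD0325901. Lhcgr, Itgam and Tek were not detected in any group. The part of these other cells in the differences of the 9 genes was not tested.

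Genes with the most similar pattern over the 6 arrays were sought among 12321 genes well above background on all arrays, by the Euclidean distance between vehicle-centred log2 levels. Nearest to Gata1 were Tenm4 (distance 0.21), Rab11fip4 (0.27) and Asb9 (0.33). Nearest to Amh were Smarca2, Noxo1 and Dipk1a, each at 0.10. Tenm4, for example, was above its vehicle mean by 0.55 and 0.77 on the bFGF arrays and by 1.79 and 1.85 on the PD0325901 arrays. The nearest genes to Dhh were Hus1, Hnrnpll and Znhit2, those to Sox9 were Kcnk13, Clec16a and Dpagt1, and those to Wt1 were Trmt6, Akirin1 and Slc25a32. These matches describe 6 arrays in 3 groups.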

How the data were processed

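RNA of 6 samples of cultured Sertoli cells was hybridised to single-colour Agilent mouse arrays whose design names build mm8. The deposited scanner files were made with Agilent Feature Extraction 9.5.3.1, per the file headers (9.5 per the submitters' processing notes), and the values used were its processed signals, a background-subtracted linear intensity. A deposited value table of log2 signals, scale not stated in the sources used here, equalled the scanner values to within 0.01 log2 for 100% of probes after 1 offset per array and was used as an alternative; its column medians ran from -0.107 to 0.020.

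Each intensity was divided by its array's 75th percentile and log2 transformed. Control spots and outlier flags were left out, spots of a probe were averaged, and 41091 of 41174 probes remained. RefSeq accessions named 23341 of these (56.8%); 17750 stayed unnamed. A probe was tested if on both arrays of some group at least 0.5 of its spots were well above background. The brightest detected probe stood for a gene. R 4.3.3 and limma 3.58.1 fitted 3 groups of 2 arrays with no block. The model was tested on simulated data. The number of arrays limits the precision. "At least" folds compare the brighter group with the lowest signal well above background, or the dim probe's own where higher.

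The 9 genes and all lists were chosen with earlier results of these data known. From each list were named the 3 genes with the largest called difference under PD0325901 and the 2 largest under bFGF, and Nr5a1, Nr0b1, Zfpm1, Zfpm2, Amhr2, Ptch1, Gli1, Hhip, Foxl2 and Fgf9 always. Emx2, Gadd45g, Tcf21, Smo, Hhat and Boc, and markers given as not above background, were named after their values were seen. Normexp was run on median signals, not on mean signals as first listed, an alternative chosen after seeing the data. Some genes that the rule names are not reported here.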

Additional observations from a re-analysis of the deposited data

How the results depend on the processing

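Over 17 alternatives, the 9 genes gave 153 values per comparison. Of these, 152 kept their direction and side of the threshold for PD0325901 against vehicle, 151 for bFGF against PD0325901 and 131 for bFGF against vehicle. Leaving out 1 array at a time gave 8 called genes for PD0325901 against vehicle, 0 to 2 for bFGF against vehicle and 8 for bFGF against PD0325901. Without bFGF replicate 2, limma called 0 genes of all those tested for bFGF against vehicle, with 3722 at an unadjusted p under 0.05, 3 of them among the 9; without bFGF replicate 1 it called 1 of the 9, Gata1. For bFGF against vehicle the direction turned, among genes not called, with the array median as scale for Wt1 (-0.056) and Dhh (-0.086), with normexp on median signals for Sox8 (0.053) and Dhh (-0.00023), and without vehicle replicate 1 for Sox8 (0.058).

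The array median moved the median of all genes by 0.11 for PD0325901 against vehicle, -0.13 for bFGF against vehicle and -0.24 for bFGF against PD0325901. The higher and lower calls over all genes went from 3428 and 4168 to 4708 and 3176, from 1797 and 1037 to 1431 and 4045, and from 5205 and 3622 to 3408 and 6606, in that order. With that scale, Sox9 was called for bFGF against vehicle (-0.24, adjusted p = 0.0172, limma), Gata6 was not (0.04, adjusted p = 0.435), and Dmrt1 was called in all 3 comparisons. The causes were not tested.

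Deviations of samples with the same replicate number had correlations of -0.08, 0.12 and -0.12 between groups. These values cannot decide whether the numbers pair the samples, because every treatment had its own slide and 2 arrays. With the replicate number as a block, 8, 2 and 8 of the 9 genes were called for PD0325901 against vehicle, bFGF against vehicle and bFGF against PD0325901. Normexp on mean signals was not run.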

Other observations

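Genes that act on the ovarian side, which DMRT1 and SOX9 are known to hold down, were measured too. With PD0325901, 55.6% of those tested were called, against 53.4% of all genes. Of 9 tested, 2 rose, 3 fell and 4 were not called under PD0325901; without vehicle replicate 2, 1 rose and 2 fell. Runx1, a granulosa cell factor of the fetal ovary, fell by 2.00 ± 0.08 (adjusted p = 0.000225, limma), from -2.47 and -2.45 in vehicle to -4.39 and -4.51. Esr1, an estrogen receptor, rose by 1.56 ± 0.06 (adjusted p = 0.000205, limma) and by 0.40 under bFGF, the latter lost in 8 of 17 alternatives, among them every array left out but bFGF replicate 1. Rspo1, the ligand that starts ovarian WNT signalling, rose by 1.68 ± 0.42 (adjusted p = 0.0272, limma; not called without vehicle replicate 2 or PD0325901 replicate 1), and its arrays were spread widely, at -1.75 and -2.42 in vehicle and 0.04 and -0.84 under PD0325901. Foxl2, the gene that keeps granulosa cell identity, was not called, at -0.65 with an interval of -1.64 to 0.33, and was well above background on 1 of 2 arrays in the vehicle group and 1 of 2 in the PD0325901 group.

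Among 16 other GATA, SOX and DMRT family genes, 6 rose, 5 fell and 5 were not called under PD0325901. The called share was 68.8%, against 53.4% of all genes. Dmrt2 rose by 0.995 ± 0.111 (adjusted p = 0.00261, limma), while Dmrt3 fell by 0.82 ± 0.10 (adjusted p = 0.00362, limma). Gata2, a blood and endothelial cell factor, fell by 0.91 ± 0.12 (adjusted p = 0.00446, limma), against the rise of Gata1, Gata4 and Gata6. Endothelial markers fell in the same arrays, where Emcn fell by 2.34 and Flt1 fell by 2.28, and their part in the Gata2 difference was not tested. Dmrta1 rose with both treatments, by 0.82 under bFGF (not called without bFGF replicate 2) and 0.57 under PD0325901. Gata5 was not well above background in vehicle or under PD0325901, and no fold is given for it.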
